A study of Mus musculus with 27 samples.

Results

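The Notch receptors *Notch1*, *Notch2*, *Notch3* and *Notch4*, the ligands *Jag1*, *Jag2* and *Dll4*, and the target genes *Hey1*, *Hey2* and *Heyl* were examined in a map of histone H3 lysine 4 (H3K4) methylation of the mouse heart at E11.5, a mid-gestation embryonic stage. Their regions were all those of the merged list of H3K4me1, H3K4me2 and H3K4me3 regions that lay in the gene body or within 5 kb of one of the gene's transcription start sites (TSS). All 10 genes were found in the annotation (GENCODE vM1), and they held 82 of the 358833 merged regions. The authors' 2 further lists name the merged regions in which H3K4me1 or H3K4me2 was called lower in *Kmt2d* mutant hearts, and a decreased region here is one that matches an entry of such a list exactly.

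Control embryos were *Tnnt2::Cre;Kmt2d fl/+;mTmG/+* and mutant embryos *Tnnt2::Cre;Kmt2d fl/fl;mTmG/+*, on a C57BL/6 background. *Kmt2d* encodes a methyltransferase that adds methyl groups to H3K4. All embryos of both genotypes carried Cre, the mTmG reporter of Cre activity and at least 1 floxed copy of *Kmt2d*, so Cre can also remove 1 copy in the controls. The *Tnnt2* promoter drives Cre in cardiomyocytes, so endocardial, smooth muscle and epicardial cells of the mutants keep *Kmt2d*. Each genotype was sampled as 3 pools of 30 whole hearts, with an input and an immunoprecipitation for each of the 3 marks, which gave 24 heart libraries of the 27 in the series. Because whole hearts were used, fewer cells of a type and less of a mark per cell cannot be told apart. The lists hold positions without reads, folds or *P* values for any library, so the depth is unknown and no difference could be set against the spread between pools.

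Notch signalling passes between neighbouring cells. A ligand of the Jagged or Delta-like family on 1 cell binds a Notch receptor on the next, which is cut so that its intracellular domain enters the nucleus and joins the DNA-binding protein RBPJ and a Mastermind-like co-activator. The *Hey* genes are direct targets of this complex and encode basic helix-loop-helix repressors. In the embryonic heart the pathway is used mainly in the endocardium, where it acts in trabeculation and in the formation of the valves, while *Hey1* and *Hey2* also pattern the atrial and ventricular myocardium.

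H3K4me2 was called lower at 4 of the 10 genes and H3K4me1 at 2 others. The decreased H3K4me2 regions lay over the TSS of *Hey1*, *Hey2* and *Jag1* and over the 3′ end of *Notch4*. The decreased H3K4me1 regions lay inside *Jag2* (2 regions) and *Heyl* (1 region), away from any TSS. *Notch1*, *Notch2*, *Notch3* and *Dll4* held no decreased region of either mark, and 0 regions were in both lists. The share of all merged regions in both lists was not computed, so this 0 is not read as a result about these genes. Among all 20017 protein-coding genes with a merged region in the same window, 28.7% had a region of decreased H3K4me2 and 7.07% a region of decreased H3K4me1.

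**Figure D1:**
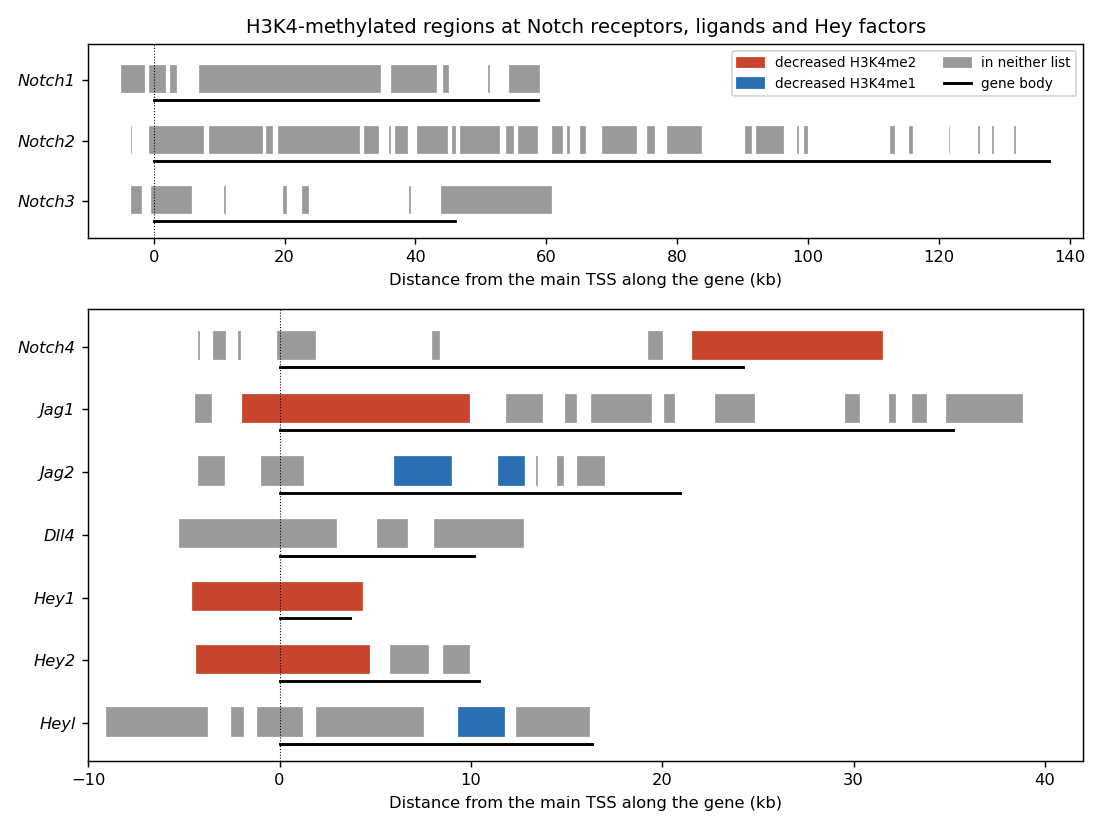
Merged H3K4-methylated regions (boxes) of the 10 genes by distance in kb from the main TSS, read along each gene, with the gene body as a black line. The upper panel has a longer scale. Red boxes had decreased H3K4me2 and blue boxes decreased H3K4me1 in mutant hearts. The red boxes of *Hey1*, *Hey2* and *Jag1* span the TSS, that of *Notch4* lies at its 3′ end, and the blue boxes of *Jag2* and *Heyl* lie within the genes.

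Of the 82 regions, 4 had decreased H3K4me2, a share of 4.88% (95% Wilson interval 1.91% to 11.9%), against 1.87% of all merged regions. Decreased H3K4me1 was called in 3, a share of 3.66% (1.25% to 10.2%), against 0.761% of all merged regions. These intervals treat regions as separate draws, although several lie in 1 gene, and they cover counting error only. By covered length, 16.0% of the 249020 bp in these regions had decreased H3K4me2, against 9.09% of the 308468100 bp in all merged regions. For H3K4me1 the shares of covered length were 2.71% and 2.49%. The 4 regions with decreased H3K4me2 were 8860 to 11860 bp wide, whereas the 3 with decreased H3K4me1 were 1380 to 2940 bp wide. The 75 regions in neither list ranged from 60 to 27560 bp, with a median of 1020 bp.

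The DNA just upstream of the main TSS, which is the 5′-most TSS of a protein-coding transcript, is shown for the 3 genes with decreased H3K4me2 there and for *Dll4*, whose TSS region was of similar width but in neither list. Sequences are the 250 bases before the TSS, read 5′ to 3′ on the strand of the gene from NCBIM37 (mm9). Capitals mark matches to the core word of RBPJ (GTGGGAA, or TTCCCAC on the other strand) and of TEAD factors (GGAATG, or CATTCC), the partners of YAP in Hippo signalling. The E-box CACGTG, a form bound by some basic helix-loop-helix and related factors, and the GATA word (AGATAA, or TTATCT) were also searched for.
Hey1, chr3:8667040-8667289, minus strand: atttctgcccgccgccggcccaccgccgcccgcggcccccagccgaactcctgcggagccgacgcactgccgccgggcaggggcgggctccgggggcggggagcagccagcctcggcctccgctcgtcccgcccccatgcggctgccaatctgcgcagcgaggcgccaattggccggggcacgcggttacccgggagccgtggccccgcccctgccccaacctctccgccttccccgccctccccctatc
Hey2, chr10:30562608-30562857, minus strand: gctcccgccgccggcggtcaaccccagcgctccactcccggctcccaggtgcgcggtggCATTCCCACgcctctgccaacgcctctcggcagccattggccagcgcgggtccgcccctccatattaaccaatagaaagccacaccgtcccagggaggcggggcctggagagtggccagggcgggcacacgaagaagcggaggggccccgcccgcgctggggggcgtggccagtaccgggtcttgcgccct
Jag1, chr2:136942381-136942630, minus strand: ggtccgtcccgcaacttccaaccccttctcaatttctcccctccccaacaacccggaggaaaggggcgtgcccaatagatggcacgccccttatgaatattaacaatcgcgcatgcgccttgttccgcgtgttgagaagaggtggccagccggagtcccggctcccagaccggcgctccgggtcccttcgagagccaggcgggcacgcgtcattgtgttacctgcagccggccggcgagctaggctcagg
Dll4, chr2:119151270-119151519, plus strand: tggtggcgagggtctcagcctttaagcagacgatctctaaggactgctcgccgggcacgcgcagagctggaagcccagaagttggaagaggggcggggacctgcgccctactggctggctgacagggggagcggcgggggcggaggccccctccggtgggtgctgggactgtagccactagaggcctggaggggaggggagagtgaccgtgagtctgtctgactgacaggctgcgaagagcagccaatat
*Hey2* alone of these 4 has capitals, because an RBPJ and a TEAD match share 4 bases in the run CATTCCCAC. Guanine and cytosine made up 75% of the 300 bases from 250 before to 50 after the TSS in *Hey1*, 72.7% in *Hey2*, 60% in *Jag1* and 63.7% in *Dll4*, against a median of 55.33% over protein-coding genes.

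*Hey1*, which marks the atrial myocardium, had a single region, and it was in the H3K4me2 list. This region, chr3:8662746-8671605, is 8860 bp wide, runs from 4566 bp before the TSS to 4293 bp after it, and holds the whole gene with its 5 exons. *Hey2*, which marks the compact myocardium of the ventricles, had 3 regions. The region over its TSS, chr10:30557906-30566985, had decreased H3K4me2, is 9080 bp wide, spans 4378 bp before to 4701 bp after the TSS and covers exons 1 to 3 of 5. The other two, an intronic region of 1980 bp and one of 1380 bp in exon 5, were in neither list.

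In both *Hey1* and *Hey2* the decreased region was wide and nearly symmetrical about the TSS. No further region with decreased H3K4me2 lay near either gene. The next one was 1212867 bp from *Hey1* and 213200 bp from *Hey2*. *Heyl*, a Hey factor of vascular smooth muscle, had the opposite pattern. Its 6 regions covered 79.3% of the gene body, the region over its main TSS was only 2360 bp wide, and none had decreased H3K4me2. A 2420 bp region over exon 4 of 5, chr4:122920106-122922525, 9307 bp after the TSS, had decreased H3K4me1.

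The RBPJ word near the TSS also set *Hey1* and *Hey2* beside each other. The match nearest the main TSS is printed for the 3 Hey genes and for *Notch1*, with 10 bases on each side, on the strand of the gene. Capitals mark the RBPJ word.
Hey1, chr3:8667005-8667031, minus strand: ggggcgcagcGTGGGAAagggatggtt
Hey2, chr10:30562577-30562603, minus strand: gggctgcagcGTGGGAAagaacctcca
Heyl, chr4:122910917-122910943, plus strand: gcccggggccTTCCCACggttcggtgg
Notch1, chr2:26372201-26372227, minus strand: aggttgcagcTTCCCACccacatggct
The match starts 18 bp after the TSS in *Hey1* and 14 bp after it in *Hey2*, on the strand of the gene in both. It lies within the longest run of bases that their 300-base promoter windows share, gcagcGTGGGAAag, which is 14 bases long. The longest run shared with the same window of *Heyl* was 8 bases for either gene, and did not hold the word. In *Heyl* the nearest match lies 128 bp after the TSS and in *Notch1* 34 bp before it, each on the other strand. A match on the gene's strand within the first 50 transcribed bases was present in 0.483% of the 22359 protein-coding genes.

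Over the whole 300-base windows, 3 of the 10 genes had an RBPJ match (*Notch1*, *Hey1* and *Hey2*), against 5.926% of protein-coding genes. The *Notch1* window lies at its 5′-most TSS. The TSS of its transcript with the longest coding sequence lies further into the locus, and the window there was not searched. A TEAD match was present in 3 of 10 (*Notch1*, *Notch4* and *Hey2*), against 13.36%. The E-box and the GATA word were in 0 of 10, against 7.782% and 10.3%. In full regions, however, such words were common. The decreased region of *Hey1* held 4 RBPJ words, that of *Hey2* 3, that of *Jag1* 4 and that of *Notch4* 3, while 88.9% of all 1989 merged regions of 8000 to under 12000 bp held at least 1, with a median of 2. The *Dll4* TSS region, which was in neither list, also held 3. Of the 3 regions with decreased H3K4me1, that in exon 3 of *Jag2* held 1 RBPJ word and the others none. A match here is a run of letters and does not show that the factor is bound.

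Among the ligands, *Jag1* was marked in 11 regions and *Jag2* in 7, with different marks called in each. *Jag1* encodes a ligand of endocardium, outflow tract and smooth muscle. The region over its main TSS, chr2:136932466-136944325, had decreased H3K4me2. It is 11860 bp wide, the widest region over a main TSS among the 10 genes. It is skewed into the gene, with 1945 bp before the TSS and 9914 bp after it, over exons 1 to 3 of 26. The other 10 *Jag1* regions, 320 to 3980 bp wide, were in neither list. A 1400 bp region with decreased H3K4me1 lay 6487 bp past its 3′ end, outside the window.

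*Jag2* had the reverse arrangement. Its TSS region of 2200 bp was in neither list, although the 300-base window at that TSS had the highest GC content of the 10 genes, 86%. H3K4me1 was called lower in a 2940 bp region that takes in exon 3 of 26, chr12:114158766-114161705, and in a 1380 bp region over exons 6 and 7, chr12:114154906-114156285. The first starts 6001 bp and the second 11421 bp after the TSS, and both are mostly intronic, with 58 and 160 bp of exon. Of all merged regions of 1000 to under 4000 bp without a TSS inside, 1.73% had decreased H3K4me1.

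*Dll4*, the endothelial ligand of *Notch1*, had 3 regions that covered 64.6% of its body, all in neither list. Its TSS region was 8200 bp wide and ran from 5274 bp before to 2925 bp after the TSS, over exons 1 to 6 of 11. This region also holds a TSS of the neighbouring gene *Gm14207*. The nearest decreased H3K4me2 outside the window was 138588 bp away and the nearest decreased H3K4me1 354308 bp away.

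The receptors had the most regions. H3K4me2 was called lower in 1 of 51 receptor regions, or 1.96% (0.347% to 10.3%), close to the 1.87% of all merged regions, and H3K4me1 in none, for which the upper limit is 7.0%, against 0.761%. Among the ligands, 1 of 21 regions had decreased H3K4me2 and 2 decreased H3K4me1. Among the Hey factors, 2 of 10 had decreased H3K4me2 and 1 decreased H3K4me1. The same background shares apply, and these counts are small.

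*Notch1*, the receptor of the endocardium, had 8 regions over 71.9% of its body, a smaller share than in *Hey1*, *Hey2* and *Heyl*. More of the body was covered in *Notch1* than in 89.97% of protein-coding genes with a region. At its 5′-most TSS the region was 2460 bp wide. The transcript with the longest coding sequence starts further into the locus, and its TSS lies in a region of 27560 bp, chr2:26337646-26365205. That width exceeded the region over the main TSS of 99.63% of protein-coding genes with a region there. In each of the other genes that transcript starts at the main TSS. Comparisons over the main TSS used the 5′-most TSS of every gene, so *Notch1* entered them with its 2460 bp region. Neither the 2460 bp nor the 27560 bp region was in a decreased list. The nearest decreased H3K4me2 was an 80 bp region 3678 bp past the 3′ end, just outside the window.

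*Notch2*, expressed in myocardium and in other cells, had 29 regions, more than 92.27% of protein-coding genes with a region. Together they covered 70320 bp, and the widest was an intronic region of 12360 bp. The TSS region was 8360 bp wide, almost all of it inside the gene, and no *Notch2* region was in either list. The nearest decreased regions lay 193356 bp (H3K4me1) and 353096 bp (H3K4me2) away. *Notch3*, the receptor of smooth muscle cells and pericytes, had 7 regions over 20.8% of its body, close to the 20.5% that was the median of protein-coding genes with a region. Its TSS region was 6100 bp wide, and a region of 16840 bp over the last exon ran past the 3′ end and over a TSS of *Gm17276*. None was in a decreased list.

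*Notch4*, a receptor of endothelial cells, was the only receptor with a call. Its main TSS region was 2000 bp wide, the narrowest of the 10 genes, and was in neither list. The decreased H3K4me2 region, chr17:34722766-34732725, is 9960 bp wide and begins 21553 bp after the main TSS. It covers exons 27 to 30 of 30 and 2683 bp of the gene body, and continues past the 3′ end over TSS of *Gpsm3* and *Pbx2*. Within *Notch4* it holds the TSS of 3 short transcripts without an annotated coding sequence. The call therefore cannot be assigned to *Notch4* rather than to its neighbours, and without it 3 genes had decreased H3K4me2.

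Because the decreased H3K4me2 regions were wide, the width of the region over the main TSS was compared with that of all protein-coding genes. A merged region lay over the main TSS of all 10 genes and of 15099 of 22359 protein-coding genes. The median width was 7150 bp for the 10 genes and 3640 bp for protein-coding genes, with quartiles of 2350 and 5660 bp. *Jag1* (11860 bp), *Hey2* (9080 bp) and *Hey1* (8860 bp) had the widest regions, followed by *Notch2* (8360 bp), *Dll4* (8200 bp) and *Notch3* (6100 bp). *Notch1* (2460 bp), *Heyl* (2360 bp), *Jag2* (2200 bp) and *Notch4* (2000 bp) lay below the median of protein-coding genes. At this TSS the 3 regions in the H3K4me2 list were the 3 widest. At the TSS of the longest coding sequence the *Notch1* region, 27560 bp, was wider than all 3 and was in neither list.

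**Figure D2:**
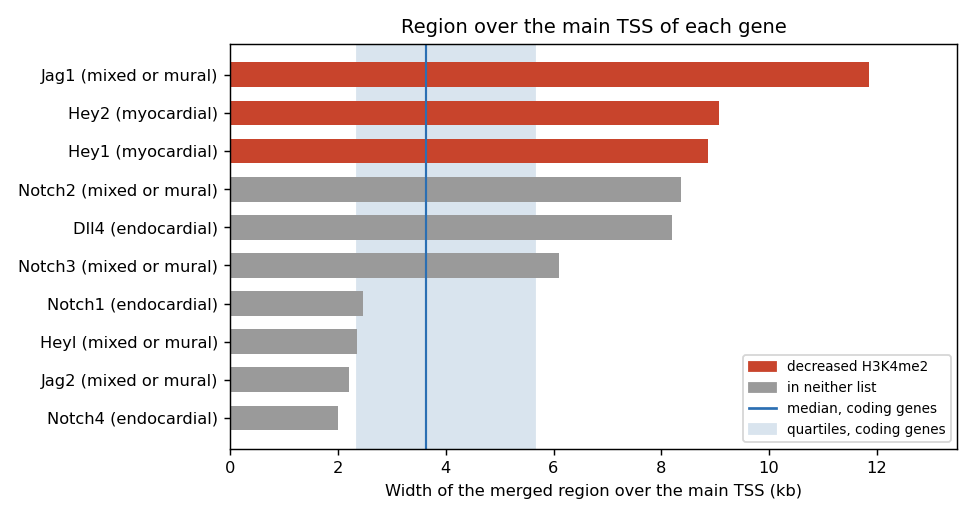
Width in kb of the merged region over the main TSS of each gene, as bars from 0, red where H3K4me2 was called lower in mutant hearts. The blue line and the shaded band are the median and the quartiles of 15099 protein-coding genes. The 3 red bars, of 8860 to 11860 bp, are the longest, and 4 genes lie below the blue line. *Notch1* is drawn at its 5′-most TSS and not at the wider region further into the locus.

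H3K4me2 was called lower over the main TSS of 3 of the 10 genes, against 28.7% of the 15099 protein-coding genes with a region there, so the share of these genes was near the background. H3K4me1 was called lower over the main TSS of none, against 0.649%. Among all protein-coding genes the share with decreased H3K4me2 rose with width, from 1.861% under 1000 bp and 26.89% between 2000 and 4000 bp to 50.56% at 12000 bp or more. Of the 5 genes with a TSS region of 8000 to under 12000 bp, 3 were in the list (*Jag1*, *Hey1* and *Hey2*) and 2 were not (*Notch2* and *Dll4*), against 43.8% of the 1121 protein-coding genes of that class (40.92% to 46.72%). The 4 genes of 2000 to under 4000 bp were not in the list. Over all regions of the 10 genes, with or without a TSS, 10 were at least 8000 bp wide, of which 4 had decreased H3K4me2. The share over all merged regions of that width was not computed.

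**Figure D3:**
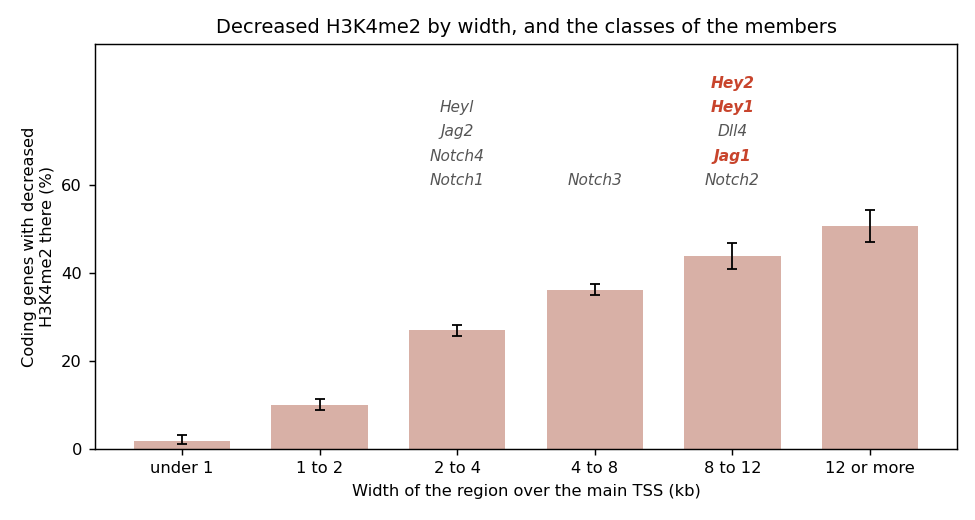
Percentage of protein-coding genes with decreased H3K4me2 over the main TSS, by width of the region there in kb, as bars from 0 with 95% Wilson intervals. The names above the bars place the 10 genes in their classes, in bold red where they were in the list. The 3 called genes share the class of 8 to 12 kb with *Notch2* and *Dll4*.

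To compare cell types, *Hey1* and *Hey2* were taken as the myocardial genes and *Notch1*, *Notch4* and *Dll4* as the endocardial genes. Cre is active in cardiomyocytes and not in endocardial cells. The lists do not show which cells of the whole heart carried a mark, so this grouping does not separate cells with and without Cre. The remaining 5 (*Notch2*, *Notch3*, *Jag1*, *Jag2* and *Heyl*) are used by several cell types or by mural cells. Over the main TSS, H3K4me2 was called lower in 2 of 2 myocardial and 0 of 3 endocardial genes, against 28.7% of protein-coding genes. The widths differed too: the class of *Hey1*, *Hey2* and *Dll4* had a share of 43.8% and that of *Notch1* and *Notch4* one of 26.89%. By regions, decreased H3K4me2 was called in 2 of 4 myocardial regions, 50% (15.0% to 85.0%), and in 1 of 18 endocardial regions, 5.56% (0.988% to 25.8%), the latter being the region that *Notch4* shares with *Gpsm3* and *Pbx2*. The share over all merged regions was 1.87%. These shares depend on the number of regions per gene, which was 1 in *Hey1*, 3 in *Hey2*, 8 in *Notch1*, 7 in *Notch4* and 3 in *Dll4*. Their intervals treat regions of the same gene as separate draws. The median width over the main TSS was 8970 bp in the myocardial and 2460 bp in the endocardial genes. No test was possible with these numbers of genes and without values per pool.

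This contrast depended on how the genes and TSS were assigned. With *Notch2* counted as myocardial and *Jag1* as endocardial, 2 of 33 regions (6.06%) against 2 of 29 (6.90%) had decreased H3K4me2, so the order was reversed. Taking the widest region over any TSS of each gene, the median width was 8970 bp in the myocardial and 9960 bp in the endocardial genes, because *Notch4* then counted with the 9960 bp region that it shares with *Gpsm3* and *Pbx2* and *Notch1* with its 27560 bp region. At the TSS of the longest coding sequence, where *Notch4* keeps its 2000 bp region, the medians were 8970 and 8200 bp. H3K4me1 was called lower in 0 of 4 myocardial and 0 of 18 endocardial regions, against 0.761% of all merged regions. All 3 decreased H3K4me1 regions were in genes of mixed or mural expression, which held 60 of the 82 regions. These counts are too small to compare the groups.

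The tissue was checked by the regions over marker genes of cell types. All 10 cardiomyocyte markers had a region over the main TSS, with a median width of 14990 bp, as did 5 of 8 endocardial or endothelial markers, with a median of 10380 bp. Of the markers of tissues outside the heart, 4 of 4 neural genes found in the annotation had such a region, with a median of 2850 bp, and 2 of 4 hepatocyte genes, with a median of 1330 bp, so a region over a TSS does not by itself show expression in the heart. Against 1.87% of all merged regions, H3K4me2 was called lower in 3 of 222 cardiomyocyte marker regions, 1.35% (0.461% to 3.90%), including that over the TSS of *Nkx2-5*, and in 0 of 141 endothelial marker regions, with an upper limit of 2.65%. H3K4me1 was called lower in 7 of the cardiomyocyte marker regions, of which 6 were in *Ryr2*, 1 of them over its main TSS, and in 1 of the endothelial marker regions, against 0.761% of all merged regions. Among the other cell types, H3K4me2 was called lower in 1 of 43 smooth muscle, 0 of 27 epicardial and 2 of 10 erythroid marker regions, the last including that over the TSS of *Alas2*. Outside the heart it was called lower in 1 of 17 neural marker regions, over a TSS of *Pax6*, and in 0 of 22 hepatocyte marker regions. The part of differences in cell number in the calls at the Notch genes was not tested.

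To place the receptors, ligands and Hey factors within their pathway, 29 other Notch pathway genes were examined, of which 26 had a region over the main TSS (median 5130 bp). H3K4me2 was called lower over the main TSS of 9 of these 26, again near the 28.7% of protein-coding genes. It was called lower in some region of 11 of 29, against 28.7% of protein-coding genes with a region in the same window. The 9 act at different steps. *Adam10* (6580 bp) and *Adam17* (3240 bp) encode proteases that can cut the receptor, and *Mib1* (5120 bp) encodes a ubiquitin ligase that ligands need in the signal-sending cell. *Numb* (11220 bp) and *Itch* (4880 bp) encode negative regulators of the receptor. In the nucleus, *Maml1* (6380 bp) and *Maml3* (5560 bp) encode co-activators of the RBPJ complex, *Spen* (7160 bp) a co-repressor that binds RBPJ, and *Hes1* (14200 bp) a target repressor related to the Hey factors.

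*Psenen* and *Nrarp*, the remaining genes with decreased H3K4me2, had it past their 3′ ends, in regions of 4080 and 1440 bp. Both regions lie outside the gene body and were included because they lie within 5 kb of a TSS. Whether they belong to neighbouring genes was not examined. Over all 387 regions of the 29 genes, 13 had decreased H3K4me2, or 3.36% (1.97% to 5.66%), against 1.87% of all merged regions. Decreased H3K4me1 was called in 4, or 1.03% (0.403% to 2.63%), against 0.761%. The H3K4me1 calls were in *Maml1*, *Maml3* and *Dtx2*, and none lay over a TSS of the gene. *Maml1* and *Maml3* were the genes of this list with both marks called, in separate regions. None of the 10 receptors, ligands and Hey factors had both. *Maml1* held 14 regions and *Maml3* 116, and the share of protein-coding genes with both marks called was not computed. The 2 sets of genes are therefore not contrasted on this point.

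A further 7 genes are those through which Notch signalling acts in the heart (*Efnb2*, *Nrg1*, *Bmp10*, *Snai1*, *Snai2*, *Tgfb2* and *Bmp2*). Only *Efnb2* had decreased H3K4me2 over the main TSS, in a region of 18960 bp, against 28.7% of protein-coding genes with a region there. *Efnb2* encodes a membrane ligand of endothelial cells and is a target of *Notch1* signalling in trabeculation. *Tgfb2* had decreased H3K4me2 in a 100 bp region away from its TSS. H3K4me1 was called lower in 0 of the 88 regions of these 7 genes, with an upper limit of 4.18%, against 0.761% of all merged regions.

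**Figure D4:**
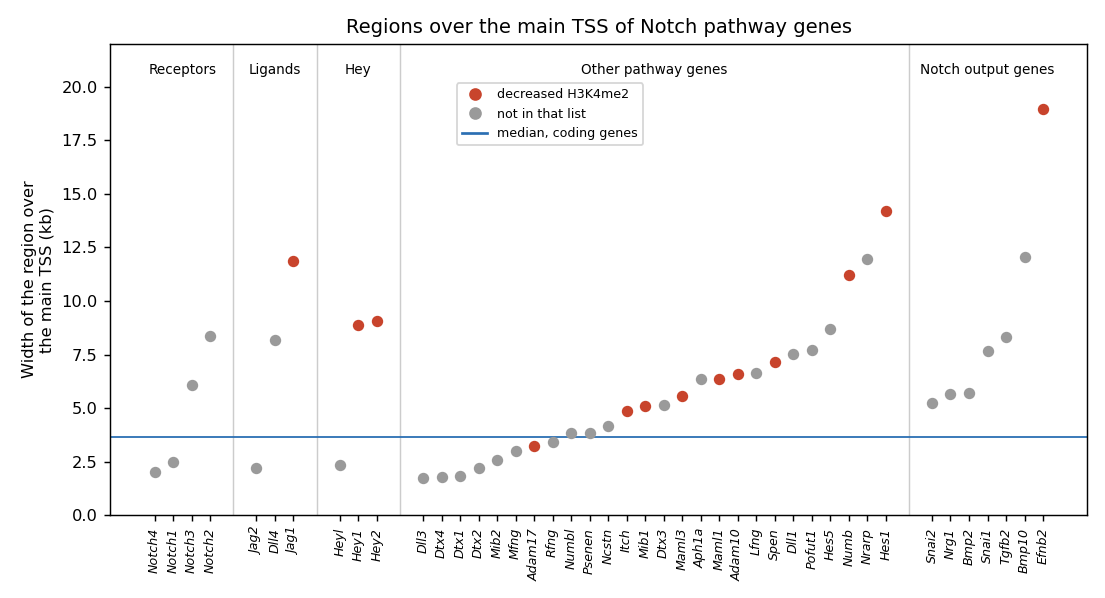
Width in kb of the region over the main TSS for the receptors, ligands and Hey factors, for the 26 other pathway genes with such a region and for 7 output genes, ordered by width within each group. Red points had decreased H3K4me2 there and the blue line is the median of protein-coding genes. Red points occur in every group except the receptors, from *Adam17* at 3240 bp to *Efnb2* at 18960 bp.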

How the data were processed

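ChIP-Seq of H3K4me1, H3K4me2 and H3K4me3 came from 3 pools per genotype. The authors merged peaks into 1 list on mm9 and deposited it with the lists of decreased H3K4me1 and H3K4me2. The deposited lists give the start and end of each region without counts. The labels name CASAVA 1.8.2, FastQC, Bowtie, Bowtie2 and SAMtools. The authors report decreased regions at a false discovery rate threshold. The H3K4me1 list holds 2730 regions, the number they report, but the H3K4me2 list holds 6699, more than they report. The threshold behind the H3K4me2 list is therefore not certain. The peak caller, the test and its normalization are not given in the sources used here. Absence from a list does not show that a mark was unaffected, and whether region width or read depth influenced the calls was not tested. The 3 KMT2D ChIP-Exo libraries were not used.

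Coordinates are 1-based. Regions were assigned by at least 1 bp of overlap with Python 3.11.15, and sequences read from NCBIM37 with pysam 0.24.0. Overlap and motif code was tested on simulated data. Shares have 95% Wilson intervals. All 10 members are named. Other genes of the lists are named where a decreased region lay over a TSS, and the remaining ones were chosen after their values were seen. The members, cell groups and lists were chosen with earlier results of these data known. Results on certain genes of the lists are not reported here, and the counts leave those genes out.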

Additional observations from a re-analysis of the deposited data

How the results depend on the processing

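Of 44 alternative values for 12 results, 34 kept their direction and stayed within 1.5 times the count or within the interval of the share, 8 moved and 2 reversed. With 20 kb around each TSS, the genes held 140 regions, 5 with decreased H3K4me1 in 4 genes. The median width over the TSS was 8280 bp at the TSS of the longest coding sequence and 8610 bp for the widest region over any TSS. The myocardial minus endocardial difference in width, 6510 bp, was 3530 bp with *Notch2* and *Jag1* added, 770 bp at the TSS of the longest coding sequence and reversed to -990 bp for the widest region. The difference in the share with decreased H3K4me2, 44.4 points, reversed to -0.836 points with *Notch2* and *Jag1* added and was 70.9 points by covered length. By covered length the share of decreased H3K4me2 was 16.0%. The TSS of the longest coding sequence in that difference, and leaving out regions that hold a TSS of another coding gene, were added after seeing the data. No paired analysis was possible because the lists hold no value per library, and no replicate could be left out.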

Other observations

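In the wider window of 20 kb around each TSS, *Notch3* and *Jag1* each gained 1 region with decreased H3K4me1 and *Notch1* gained 1 with decreased H3K4me2. These were a 2120 bp region 11781 bp upstream of *Notch3*, a 1400 bp region 6487 bp past the 3′ end of *Jag1*, and the 80 bp region 3678 bp past the 3′ end of *Notch1*. *Notch2* and *Dll4* held none of either mark in this window. CpG sites in the 300-base promoter windows had a median of 81.67 per kb over the 10 genes, against 40 over protein-coding genes. In whole TSS regions, *Jag2* had the most, 123 per kb in its 2200 bp region, which was in neither list, and *Notch4* the fewest, 12 per kb.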
